A study of Callithrix jacchus with 4 samples.

Results

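Deep FOXP2 nuclei were excitatory neuron nuclei (ExN, by the deposited annotation) that held at least 2000 unique molecular identifiers (UMIs, tags that each mark 1 captured transcript), at least 1 FOXP2 UMI and 0 CUX2 UMIs. Members were thus chosen by measured values, the FOXP2, CUX2 and total UMIs of each nucleus, and the rule selected 1674 nuclei of 38147 in the series, or of 12880 ExN at that depth. FOXP2 encodes a forkhead repressor of layer 6 neurons, and CUX2 a homeobox factor of the upper layers. All nuclei came from grey matter of the primary visual cortex (V1) of adult marmosets and were profiled by droplet single-nuclei RNA sequencing. The injured cohort was 3 animals (F1619, F1565 and F1711, injured replicates 1, 2 and 3), taken 7 days after endothelin-1, a vasoconstrictor peptide, had been injected into V1, and each gave 1 library that held infarct core and penumbra. The control cohort was 3 uninjured marmosets pooled in 1 library, which leaves the spread among control animals unmeasured. The cohorts also differed in nuclei isolation, sequencing site, instrument and doublet removal, which cannot be told apart from injury.

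Layer 6 holds the neurons that project back to the thalamus, beside neurons that connect within the cortex. In V1 the corticothalamic cells send feedback to the lateral geniculate nucleus, and layer 4, above them, receives its input from there. FOXP2 is best known from inherited speech disorder and marks corticothalamic neurons in many mammals. Interferons, which cells release on viral infection or damage, act through a receptor and its transcription factors to switch on antiviral genes and the presentation of peptides on MHC class I molecules, a pathway that is quiet in resting neurons.

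The deep nuclei numbered 283, 556 and 415 in injured replicates 1, 2 and 3 and 420 in the control library, and no cell barcode among them was shared between libraries. They held 2058266, 3456017, 2792554 and 1764498 UMIs in all. The median deep nucleus held 7747, 6109 and 6713 UMIs in the injured libraries and 3633.5 in control, so control nuclei were the shallower. Levels are given in CPM, the UMIs of a gene scaled to a fixed total of all UMIs of the same nuclei in that library, so that libraries of unequal depth can be set side by side. FOXP2 stood at 384, 365 and 346 CPM in injured deep nuclei and at 410 in control, values that the choice of nuclei fixed in part. At the edge of the rule, 101, 226, 182 and 245 deep nuclei held exactly 1 FOXP2 UMI (same order of libraries). Just outside it, 56, 125, 82 and 107 FOXP2 nuclei held exactly 1 CUX2 UMI, and 1, 8, 7 and 170 ExN met the gene rule with fewer than 2000 UMIs. FOXP2 UMIs were not confined to ExN. Among nuclei of at least 2000 UMIs, 5.74 to 9.24% of inhibitory neurons, 0.0 to 3.38% of microglia and 18.2 to 34.2% of endothelial nuclei held at least 1, the control library giving only 7 microglia and 11 endothelial nuclei.

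Deep nuclei took 15.4%, 12.6% and 14.2% of ExN in the injured libraries (mean 14.1% ± 1.42, SD, n = 3) and 11.3% in control (exact 95% binomial interval 10.3 to 12.3%, which covers counting error only). The share moved with depth. When every nucleus was thinned at random to 2000 UMIs before the rule was applied, it was 11.6%, 9.27% and 10.2% in the injured libraries and 8.44% in control. At that depth the intervals of injured replicate 2 (8.43 to 10.2%) and injured replicate 3 (9.15 to 11.4%) overlapped that of control (7.56 to 9.38%). Requiring 2 FOXP2 UMIs gave 9.92%, 7.48%, 8.0% and 4.70%. Injured replicate 1 had the highest share and control the lowest under each of these rules. No test was made, as 1 control library gives no spread and the rule itself defines the share.

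**Figure D1:**
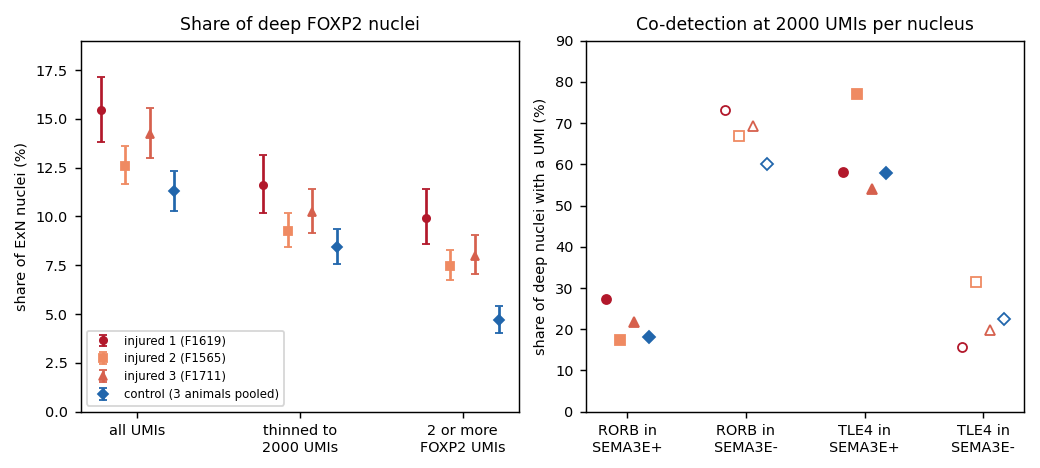
Left, share of ExN nuclei of at least 2000 UMIs (%) that met the deep FOXP2 rule in each library, read from all UMIs, from nuclei thinned to 2000 UMIs and with 2 or more FOXP2 UMIs (bars, exact 95% binomial intervals). Right, share of deep nuclei thinned to 2000 UMIs with a RORB or TLE4 UMI, split by SEMA3E detection; RORB stood at 17.3 to 27.3% with SEMA3E and at 60.2 to 73.2% without, in each of the 4 libraries.

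The deep layer label was checked against other layer genes, beside the upper nuclei (6814 ExN with CUX2 and without FOXP2). This contrast is that of the rule, so its values are a description. FEZF2, a transcription factor of subcortical projection neurons, stood at 49.1, 46.3 and 65.5 CPM in injured deep nuclei and 29.5 in control, against 0.260 to 1.77 in upper nuclei. SYT6, a synaptotagmin of layer 6 corticothalamic cells, stood at 45.7, 105 and 78.8 in injured and 69.1 in control deep nuclei, against 1.17 to 3.93 in upper nuclei. Deep levels lay above upper levels in each library for both genes.

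TLE4, a Groucho corepressor of corticothalamic neurons, stood at 198, 449 and 252 CPM in injured and 270 in control deep nuclei, 2.29 to 4.17 times the upper level of the same library. SEMA3E, a secreted guidance cue, stood at 169, 341 and 216 in injured and 297 in control deep nuclei. Injured replicate 2 had the highest level of both, and injured replicate 1 the lowest. BCL11B and ETV1, transcription factors of layer 5 projection neurons, were at least 5.94 and 7.14 times the upper level. TOX, a high mobility group factor, was 7.38 to 13.7 times the upper level. ZFPM2, NTNG2, PCP4 and CRYM were also higher in deep nuclei of each library. Other listed deep markers differed less. TBR1 was 1.26 to 1.56, THEMIS 1.01 to 2.21, FOXP1 1.04 to 1.17 and NR4A2 0.98 to 1.52 times the upper level. OPRK1, at a few UMIs, was higher in deep nuclei of only 1 library. Of the upper markers, CUX1, PDZD2, RASGRF2 and LAMP5 were lower in deep than in upper nuclei of each library, and CUX1 at 395, 332, 350 and 700 CPM was 3.98 to 6.94 times lower.

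Some genes went against a pure layer 6 label. RORB, a nuclear receptor that marks layer 4, stood at 840, 532 and 666 CPM in injured and 443 in control deep nuclei. Upper nuclei held more in each library, at 899, 986, 731 and 690, but by less than for the markers above. At 2000 UMIs, 64.3%, 52.5%, 59.3% and 48.1% of deep nuclei held a RORB UMI, while 24.0%, 44.8%, 27.0% and 32.6% held a TLE4 UMI. HTR2C, listed with the deep subclasses, was lower in deep than in upper nuclei of all 4 libraries (3.47 to 10.2 against 4.89 to 12.1 CPM). COL5A2, listed with the upper markers, was higher in deep nuclei in 3 of 4, and SULF1, listed with layer 6, in 2 of 4, all at low levels. Further genes were too scarce in both classes to bear on the label. NXPH4 (layer 6b) had no UMI in deep nuclei of any library, CPLX3, not listed for control, had 3 in injured replicate 2 alone, and TSHZ2 (near-projecting cells) had 2, 2, 3 and 0. HS3ST4, of corticothalamic cells, had 1, 1, 1 and 0. In upper nuclei HS3ST4 had 0, 1, 1 and 2 UMIs and NXPH4 had 0, 0, 1 and 2. The nuclei are called by their rule and given no finer type.

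**Figure D2:**
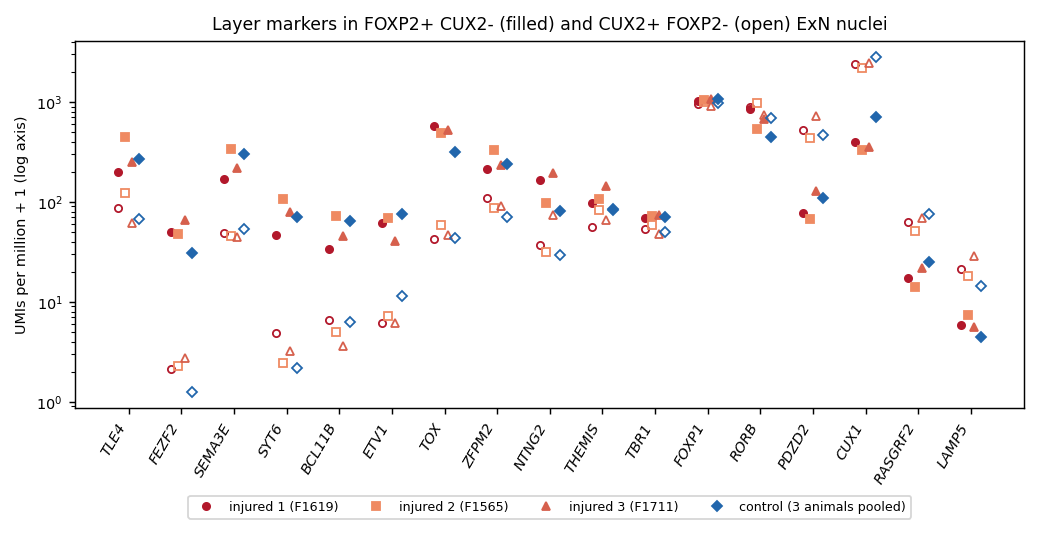
Level of layer genes (CPM + 1, log axis) in each library for FOXP2+ CUX2- deep nuclei (filled) and CUX2+ FOXP2- upper nuclei (open). FEZF2, SYT6, BCL11B, ETV1 and TOX separate the classes in all 4 libraries, while the classes lie nearer each other for RORB and FOXP1.

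Within the deep nuclei, RORB and SEMA3E were detected in largely separate nuclei. At 2000 UMIs, 55, 162, 87 and 121 deep nuclei held SEMA3E, and of these 27.3%, 17.3%, 21.8% and 18.2% held RORB (injured replicates 1, 2 and 3, then control). Of the other deep nuclei 73.2%, 67.0%, 69.2% and 60.2% held RORB. TLE4 ran the other way, in 58.2%, 77.2%, 54.0% and 57.9% of SEMA3E nuclei and in 15.8%, 31.5%, 19.8% and 22.4% of the rest. The ranges with and without SEMA3E did not overlap over the 4 libraries for either gene. TOX nuclei held RORB in 57.3 to 72.7% and nuclei without TOX in 39.2 to 56.5%. These pairs were chosen after the values were seen, the libraries are the only replicates, and no test was made. In the clusters of the deposited annotation, made separately for each cohort, 82.5% of injured deep nuclei lay in 1 broad cluster of 5398 ExN, of which 19.2% were deep and 2704 were upper nuclei. Control deep nuclei lay mainly in 2 clusters that held 48.1% and 34.5% of them, with 20 and 7 upper nuclei.

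Injured and control deep nuclei were compared on UMIs summed per library, with edgeR's quasi-likelihood test and Benjamini-Hochberg adjustment over 12127 genes. To be called, a gene needed an adjusted p below 0.01, a fold change of more than 0.25 in size on the natural-log scale, and detection in 10% or more of the deep nuclei of 1 cohort. Of the genes tested, 104 were called higher in injured deep nuclei (0.858%) and 85 lower (0.701%). Among the falls, 44 genes were at 0 UMIs over all injured nuclei, neuronal or not, and these are not read as injury effects. The spread came from the 3 injured libraries and was assumed for control. Leaving out injured replicate 1 gave 94 calls, leaving out injured replicate 2 gave 645, and leaving out injured replicate 3 gave 153. Scaling by library size alone moved the median over all genes from 0.01 to -0.09 on the log2 scale and the calls from 104 higher and 85 lower to 51 and 83.

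B2M, the light chain of MHC class I, had the largest rise among called genes with more than 3 UMIs in each cohort. It stood at 758, 753 and 514 CPM in the injured libraries and at 5.67 in control. A B2M UMI was found in 95.5% of injured and 2.38% of control deep nuclei, and the log2 fold change was 6.98 (SE 0.41, edgeR adjusted p = 0.000319). The low control level was not particular to neurons, since the 129 control microglia held 1 B2M UMI among 124463, against 4337 CPM in injured microglia.

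HERC6, an interferon-induced ubiquitin ligase, stood at 249, 308 and 103 CPM in injured deep nuclei and 4.53 in control (log2 fold change 5.69, SE 0.86). DHX58, an RNA sensor, rose by a log2 fold change of 4.27, from 7.93 CPM in control to 156, 190 and 84.2. NLRC5, the transactivator of MHC class I genes, rose by 4.61, and TAP1, which carries peptides into the endoplasmic reticulum, by 3.99 on the log2 scale. For each of these genes the 3 injured libraries lay above control, as the choice of genes required. Injured replicate 3 was the lowest of them. B2M kept its call under each of 12 alternatives, whereas HERC6, DHX58, NLRC5 and TAP1 lost it without injured replicate 1, with log2 fold changes of 5.61, 4.23, 4.60 and 3.87. HERC6 and TAP1 also lost it by library size alone (5.59 and 3.89) and at 3000 UMIs per nucleus (5.77 and 3.92). TAP1 further lost it with 2 UMIs of the class gene (3.45), and in thinned nuclei (4.42) or with the class read from them (3.95), where its adjusted p stayed below 0.01 but it was found in less than 10% of nuclei.

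Other genes rose as well. TFEC, a transcription factor of the MiT family, stood at 1736, 1791 and 1416 CPM in injured and 151 in control deep nuclei (log2 fold change 3.55, SE 0.22, edgeR adjusted p = 0.000319). PRODH, a mitochondrial enzyme that breaks down proline, stood at 194, 98.7 and 155 against 4.53. CD74, the MHC class II invariant chain of microglia and macrophages, stood at 131, 83.9 and 75.2 against 2.83. Another 3 of the 12 largest rises had no gene name, the highest being ENSCJAG00000016268 at 51.0, 45.7 and 41.5 against 2.83. Other cell types of the same 4 libraries, which share the lone control library, also had more TFEC in injured, at 1658 against 165 CPM in inhibitory neurons and 1634 against 126 in astrocytes. Over the 12 largest rises these cell types gave 41 values with more than 3 UMIs in each cohort, and all 41 were higher in injured.

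The largest falls among genes with more than 3 UMIs in each cohort were on a smaller scale than the largest rises. OOSP2, an oocyte protein, stood at 5.34, 3.76 and 3.58 CPM in injured deep nuclei and at 35.7 in control (log2 fold change -3.00), and STOML3, a protein of touch receptor neurons, at 1.94, 4.05 and 5.37 against 33.4. SNRPG, a spliceosome core protein, stood at 21.9, 15.0 and 16.8 against 98.0, and ADAMTS3, a procollagen protease, at 18.0, 23.7 and 16.1 against 98.6. The highest injured library lay well below control for each, a direction that the choice of genes required. The call was lost with the class read from thinned nuclei for OOSP2 (log2 fold change -2.72) and STOML3 (-2.16), for OOSP2 also with 2 UMIs of the class gene (-3.04), and for STOML3 also without injured replicate 1 (-2.71). In thinned nuclei both (-3.26 and -2.70) missed only the limit on detection. HOXB6 lost its call without injured replicate 1 (-2.54), with 2 UMIs of the class gene (-2.46), in thinned nuclei (-2.78) and with the class read from them (-1.74). COCH, HOXB6 and CYP2A7 were also among the 12 largest falls, the last a member of a family of close copies whose reads may be shared, and 4 of the 12 had no gene name. The falls were not particular to deep nuclei. Other cell types, which share the lone control library, gave 57 values for these genes with more than 3 UMIs in each cohort, and all 57 were lower in injured. In inhibitory neurons OOSP2 stood at 3.25 CPM in injured against 35.7 in control, and SNRPG at 16.9 against 93.7.

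**Figure D3:**
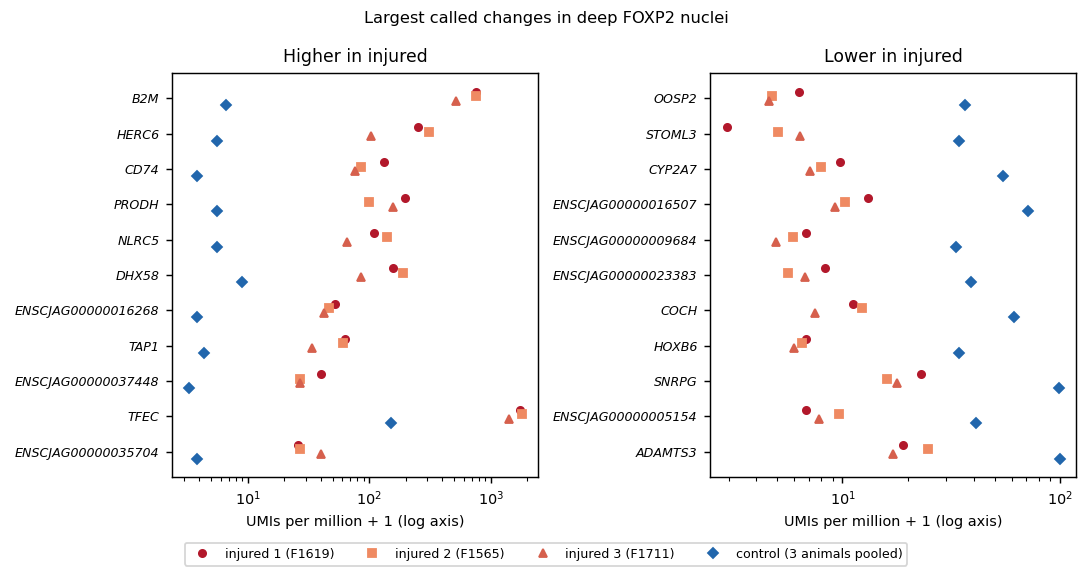
Level (CPM + 1, log axes) of the genes shown among the 12 largest called rises (left) and 12 largest called falls (right) in deep nuclei of each library. Genes were chosen with 1 direction in all 3 injured libraries, so the control library lies outside their range by choice. B2M stood at 514 to 758 in injured and 5.67 in control.

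Interferon-stimulated genes were higher in injured deep nuclei as a group. Of 40 listed genes, 32 were tested. Of these, 6 were called higher (0.858% of all genes were) and 0 lower, and 22 were higher at an adjusted p below 0.05, against 5.31% of all genes. All 32 had a fold change above 0, and their median log2 fold change was 3.88 (3.72 with genes without a control UMI at their bound), against 0.01 over all genes. A gene could pass the filter on low counts through its injured UMIs alone, so this count and median were fixed in part by the filter. The rise was not particular to deep nuclei, as the median of the same 32 genes was 3.79 in upper nuclei, which share the control library. IFIT3, PARP9, IFI6, DHX58 and HERC6 were among the called genes. IFI6, a mitochondrial interferon-induced protein, stood at 207, 193 and 120 CPM against 19.3. IFIT3, which binds foreign RNA with its relatives, had 70, 162 and 65 UMIs in the injured libraries and 1 in control, a ratio of 67.9 (exact 95% counting interval 12.1 to 2690), and its call depended on the setting. Its log2 fold change was 5.93, and the call was lost without injured replicate 1 (5.96), by library size alone (5.83), with 2 UMIs of the class gene (4.83) and at 3000 UMIs per nucleus (5.62). In thinned nuclei (7.97) and with the class read from them (7.40) it was found in less than 10% of nuclei.

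Other members of the list had large values without a call. MX1, an antiviral GTPase, stood at 240, 411 and 99.9 CPM against 3.40 in control (log2 fold change 6.29, SE 1.12, edgeR adjusted p = 0.0134). It was called with DESeq2 (6.30), with no filter (6.30), in thinned nuclei (5.54), with the class read from them (5.43), without injured replicate 2 (5.68) and without injured replicate 3 (6.67). IFIT1 had 100, 251 and 60 UMIs in the injured libraries and 0 in control, so its level was at least 31.3-fold higher, counted against 3 UMIs over the control library, and at least 20.6-fold without injured replicate 2. The injured libraries had nearly the same order over the list. Injured replicate 2 had the highest level of 30 of the 32 genes and injured replicate 3 the lowest of 30, while over all genes tested these were the highest in 34.8% and the lowest in 32.7%. The per-library medians were 3.71, 4.27 and 2.87 for injured replicates 1, 2 and 3. Genes of 1 library are not independent, and no test was made of this order.

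The MHC class I presentation list had 17 genes, of which 11 were tested. Of these, 3 were called higher (B2M, TAP1 and NLRC5) and 0 lower, beside 0.858% of all genes. All 11 had fold changes above 0 with a median of 2.93 (2.86 with genes without a control UMI at their bound). Here too a gene could pass the filter on low counts through its injured UMIs alone. In upper nuclei the median of the same 11 genes was 3.07. PSMB9, an immunoproteasome subunit, had 45, 86 and 20 UMIs in the injured libraries and 0 in control, at least 11.5-fold higher. Injured replicate 3 again gave the lowest level, for 9 of the 11.

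Microglia markers are set beside these lists. The summed level of 5 microglia markers (P2RY12, CD74, DOCK8, GPR34 and C1QB) was 222, 146 and 138 CPM in injured deep nuclei and 55.5 in control. Of these, CD74 made up 131, 83.9 and 75.2 in injured and 2.83 in control. C1QB was not listed for control, so its 27.2, 17.1 and 14.7 in injured have no control level and enter that sum on 1 side alone. P2RY12, the microglial purinergic receptor, stood at 9.23, 9.55 and 9.67 against 18.7 in control, DOCK8 at 45.2, 29.2 and 34.7 against 24.9, and GPR34 at 9.23, 5.79 and 3.94 against 9.07. The gap in the sum thus came mostly from CD74 and C1QB. When every nucleus with a UMI of a set of oligodendrocyte, microglia and astrocyte markers, among them MBP, MOBP, CD74, P2RY12, GFAP and AQP4, was left out, B2M had a log2 fold change of 6.26 (SE 0.42) and HERC6 of 5.79, and 186 genes were called. That step removed 84.1%, 72.8% and 79.8% of injured but 45.7% of control deep nuclei, leaving 45, 151, 84 and 228, and it used CD74, which was itself called higher. Nuclei with GAD1 or GAD2 UMIs made up 8.48%, 8.63% and 9.64% of injured and 4.05% of control deep nuclei, and 206 genes were called without them. The glial and GAD shares count nuclei with any such UMI, which depends on depth, and control nuclei were the shallower. The summed levels of astrocyte, oligodendrocyte, oligodendrocyte precursor and endothelial markers ran from 260 to 370, 145 to 167, 229 to 322 and 37.9 to 48.0 in injured, and were 362, 180, 349 and 28.9 in control. That of inhibitory neuron markers ran from 13.6 to 17.5 in injured and was 11.9 in control. Of all these markers only CD74 was called, and the part of such RNA in the results was not tested beyond these fits.

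Chaperones of the endoplasmic reticulum were among the genes that rose. Of 21 heat shock and unfolded protein response genes tested, 3 were called higher and 0 lower, beside 0.858% and 0.701% of all genes, and the median of the list was 0.21. CALR, which folds glycoproteins and MHC class I chains, stood at 78.7, 65.1 and 68.4 CPM in injured and 9.63 in control deep nuclei (log2 fold change 2.96, SE 0.27, edgeR adjusted p = 0.000919). HSPA5, the luminal HSP70, stood at 55.9, 56.4 and 47.3 against 9.07, and HSP90B1, the luminal HSP90, at 82.1, 90.3 and 88.1 against 29.5. The 3 injured libraries were close together and above control for each of the 3 genes. CALR kept its call under each of the 12 alternatives. HSPA5 lost it with the class read from thinned nuclei, where its log2 fold change was 1.85 against 2.65 (edgeR adjusted p = 0.0110), and HSP90B1 with 2 UMIs of the class gene, at 1.45 against 1.66 (edgeR adjusted p = 0.0144). ATF4, a transcription factor of the same response, had 20 control UMIs and none in any injured nucleus, and no fold change is drawn from it.

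Of 21 voltage-gated sodium and calcium channel subunits tested, 3 were called higher and 0 lower, beside 0.858% and 0.701% of all genes, and the median of the list was 0.33. SCN2A, the sodium channel of excitatory axons, stood at 649, 676 and 684 CPM in injured and 381 in control deep nuclei (log2 fold change 0.91, SE 0.15, edgeR adjusted p = 0.00965). SCN3A stood at 483, 439 and 432 against 250.5 (log2 fold change 0.95). The highest and lowest injured libraries differed by far less than injured from control in each. Both calls lay near the limit and were lost without injured replicate 1 (log2 fold changes 0.95 and 0.91), without injured replicate 3 (0.90 and 0.98) and by library size alone (0.81 and 0.85). They were also lost with 2 UMIs of the class gene (0.86 and 0.89) and at 3000 UMIs per nucleus (0.89 and 0.95), and SCN2A with RLE factors (0.91). Without nuclei that held glial UMIs, SCN2A had 0.71 (edgeR adjusted p = 0.0520), while SCN3A was called. NLGN2, an adhesion protein of inhibitory synapses, was the 1 gene called among 21 postsynaptic genes, at 43.7, 39.1 and 41.9 against 14.2 (log2 fold change 1.65, SE 0.26). It was not called without injured replicate 1 (1.63), without injured replicate 3 (1.64), with DESeq2 (1.64), by library size alone (1.55), with 2 UMIs of the class gene (1.54), at 3000 UMIs per nucleus (1.38) or without glial UMIs (1.31, edgeR adjusted p = 0.0722). In thinned nuclei (1.99) and with the class read from them (2.42) it missed only the limit on detection. The median of those 21 was 0.045, and it was -0.054 when scaled by library size alone.

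Lists for other functions had no call in either direction, beside 0.858% and 0.701% of all genes, shares at which few or no calls fall in lists of this size. These were ionotropic (16 tested) and metabotropic (6) glutamate receptors, GABA receptors (13), potassium and HCN channels (22), synaptic release (25), axon growth after injury (15), immediate early genes (9), the respiratory chain (29), cell death (15), axon guidance (39), Nogo and its receptors (8), genes described as FOXP2 targets (6) and excitatory neuron genes (8). Their medians ran from -0.01 (respiratory chain) to 0.81 (metabotropic glutamate receptors). At an adjusted p below 0.05 alone, 5 of the 13 GABA receptor subunits and 3 of the 6 metabotropic glutamate receptors were higher and 0 lower, beside 5.31% and 4.54% of all genes. At the same limit synaptic release had 3 higher and 2 lower, axon growth 3 and 1, ionotropic glutamate receptors 1 and 1, Nogo and its receptors 1 and 1, the respiratory chain 3 and 0, axon guidance 2 and 0, and potassium and HCN channels 1 and 0. The other 4 lists had 0. RTN4, which encodes the growth inhibitor Nogo, stood at 427, 466 and 409 CPM in injured and 244 in control deep nuclei (log2 fold change 0.94, SE 0.16, edgeR adjusted p = 0.0114), short of the limit. It was called with DESeq2 (0.93), with no filter (0.95), in thinned nuclei (0.94), with the class read from them (0.97) and without injured replicate 2 (0.86).

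**Figure D4:**
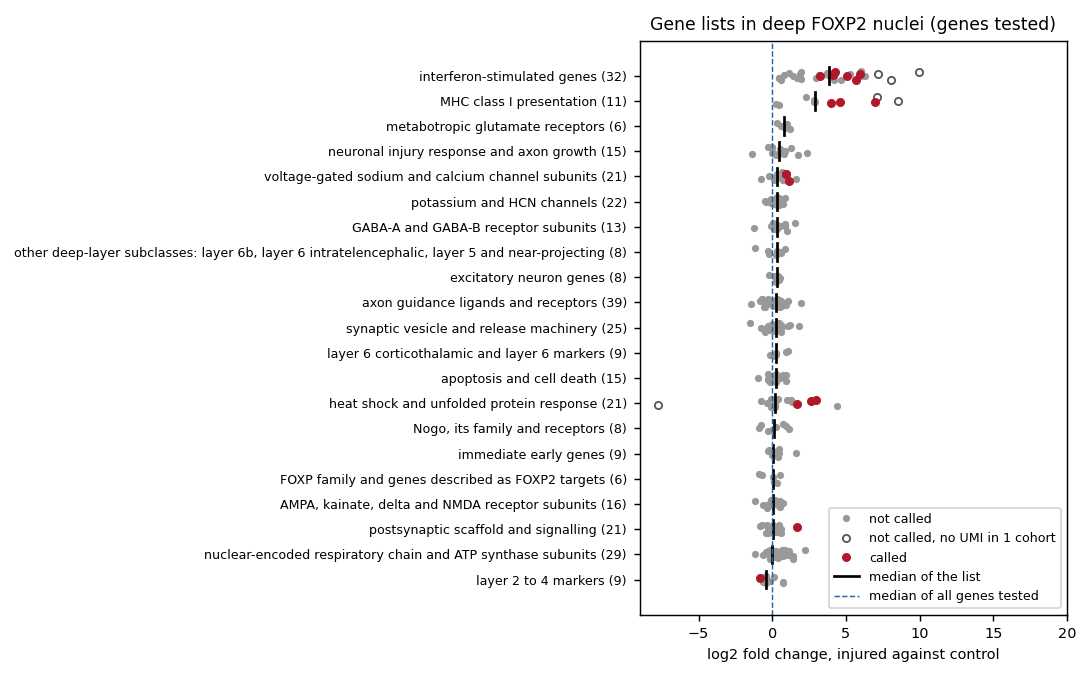
Fitted log2 fold change (injured against control) in deep nuclei of each tested gene of 21 lists, with the number tested in brackets, called genes in red and list medians as black bars. The interferon and MHC class I lists have medians of 3.88 and 2.93, and open circles are genes without a UMI in 1 cohort, whose fitted values are no measure of size.

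Among the layer genes, 1 was called between cohorts. Of 9 layer 6 markers tested 0 were called, with a median log2 fold change of 0.23, and of 8 markers of other deep subclasses 0 were called, with a median of 0.31. TLE4 had a log2 fold change of 0.27 (SE 0.39), with injured libraries on both sides of control. TOX had 0.86 (SE 0.15, edgeR adjusted p = 0.0129) and was called with DESeq2 (0.85), with no filter (0.87), in thinned nuclei (0.89) and without injured replicate 2 (0.90). CUX1 was the 1 gene called lower among 9 markers of layers 2 to 4 (0.701% of all genes were), with a log2 fold change of -0.87 (SE 0.14, edgeR adjusted p = 0.00932). The median of that list was -0.41, and 0.37 when 2 UMIs of the class gene were required. With the class read from nuclei thinned to 2000 UMIs, CUX1 had -0.41 (SE 0.18, edgeR adjusted p = 0.178), which is not called. Nor was it called without injured replicate 1 (-0.92), without injured replicate 3 (-0.85), with 2 UMIs of the class gene (-0.65), at 3000 UMIs per nucleus (-0.79), or without nuclei holding GAD1 or GAD2 (-0.83, edgeR adjusted p = 0.0105) or glial UMIs (-0.90, edgeR adjusted p = 0.0223). The lower CUX1 was not particular to deep nuclei. It stood at 385 CPM in injured against 800 in control oligodendrocytes, 486 against 991 in astrocytes and 454 against 693 in inhibitory neurons. Endothelial nuclei (631 against 804) and oligodendrocyte precursors (436 against 482) were lower too, and microglia were level (867 against 860).

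Whether the cohort difference was larger or smaller in deep than in upper nuclei was tested as an interaction, with library as a block, over 13841 genes. No gene was called (0.0%) with edgeR, 802 had an unadjusted p below 0.05, and DESeq2 also called 0, with 97 at an unadjusted p below 0.05. With no difference in any gene, a fraction of about 0.05 of the tests would pass that unadjusted limit. Leaving out injured replicate 1, 2 or 3 gave 3, 98 or 16 calls. Deep and upper comparisons share the control library, and 528 of 14304 genes tested were called in upper nuclei. Of the 189 genes called in deep nuclei, 166 were also called in upper nuclei, and all 189 changed in the same direction there. For 44 of them, without a UMI in any injured nucleus, that direction was fixed. The same share over all genes tested was not counted. For the 131 genes called in deep nuclei with more than 3 UMIs in each cohort, the difference ran from -1.21 to 1.23 on the log2 scale with a median SE of 0.26. B2M had log2 fold changes of 6.98 in deep and 7.22 in upper nuclei, a difference of -0.19 (SE 0.40).

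CDH13, a cadherin without a transmembrane domain, was the 1 gene with an adjusted p below 0.05 in that interaction, and it was named for this after its values were seen. In deep nuclei it stood at 43.7, 45.1 and 51.6 CPM in injured and 119 in control, and the injured libraries lay together below control. In upper nuclei it stood at 218, 292 and 299 in injured and 294 in control, where the groups overlapped. The log2 fold change was -1.24 in deep nuclei (SE 0.18, edgeR adjusted p = 0.00593) and -0.01 in upper nuclei, and the deep call was lost without injured replicate 1 (-1.18), with 2 UMIs of the class gene (-1.14) and with the class read from thinned nuclei (-0.90, edgeR adjusted p = 0.0264). The difference was -1.21 (SE 0.16, edgeR adjusted p = 0.0380), and over 12 alternatives it ran from -1.48 to -0.89 with adjusted p from 7.3e-09 to 0.99999. With the class read from thinned nuclei it was -0.89 with an adjusted p of 0.414. Upper nuclei held more CDH13 than deep nuclei in each library. Control deep nuclei held more CUX1 than injured ones, as did control oligodendrocytes, astrocytes and inhibitory neurons. The part of CUX2 that went undetected in these differences was not tested.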

How the data were processed

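The authors aligned and counted reads with Cell Ranger 3.1.0 (calJac3 genome, Ensembl gene models), clustered nuclei in Seurat and named clusters by cell type from their markers. Doublets were removed from the injured cohort with Scrublet, and the control cohort was filtered on genes per nucleus in Seurat. The deposited tables hold raw UMI counts per gene and nucleus, and other deposited columns hold the library, cluster and cell type. For the injured cohort 32323 genes are listed and for control 16383, each with a control UMI, and only genes in both were tested. Symbols of 965 identifiers came from a table of gene names. UMIs of deep and upper nuclei were summed per library, without FOXP2 and CUX2, and tested with edgeR 4.0.16 in R 4.3.3 (filterByExpr, TMM, glmQLFit, glmQLFTest). Other steps used Python 3.11.15. The call limits follow the study. Members, gene lists and tests were chosen with earlier results of these data known. Named genes were the 12 largest called rises and 12 largest called falls with more than 3 UMIs in each cohort and 1 direction in all 3 injured libraries, called list members, layer markers and RTN4. Some genes are not reported here. Other genes were named after their values were seen. Alternatives were DESeq2 1.42.0, other scalings, no filter, an adjusted p limit of 0.05, thinning, other class rules and leaving out each injured animal. The spread between injured libraries holds both animal and preparation.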

Additional observations from a re-analysis of the deposited data

Results flagged for a closer look

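Genes that the control table does not list were left out of each comparison, and 2046 of them had UMIs in injured deep nuclei, 0.199% of all UMIs there. They are given because they lie outside the data compared, above what a count of 0 allows. The identifier ENSCJAG00000005933 had 441 UMIs in injured deep nuclei, ENSCJAG00000011417 had 379, and CCDC85B, a coiled-coil protein gene, had 345. Another 2 genes without a name had 267 and 220 UMIs. Such genes also included the complement gene C1QC, with 200 UMIs, and the microglia marker C1QB, with 156, and the source of this RNA was not tested. CCDC85B stood at 40.3, 39.6 and 44.8 CPM in injured replicates 1, 2 and 3, levels that lay close together. No control level is given, since a gene that is not listed may have had no control UMI or may have been filtered. With all such genes counted as 0 in control, 230 genes were called in deep nuclei in place of 189.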

How the results depend on the processing

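The number of genes called in deep nuclei (189) was 361 with no filter on low counts, 107 when 2 UMIs of the class gene were required and 910 at an adjusted p limit of 0.05, and 94 to 645 when 1 injured animal was left out. DESeq2 called 173 higher and 83 lower, against 104 and 85. The number in upper nuclei (528) was 876 with DESeq2, 200 with nuclei thinned to 2000 UMIs, 217 with the class read from thinned nuclei and 1778 at an adjusted p limit of 0.05, and 273 to 1179 with 1 injured animal left out. The interaction count (0) was 2 with no filter, 2 with thinned nuclei, 1 at an adjusted p limit of 0.05 and 3 to 98 with 1 injured animal left out. The deep share (14.1% injured, 11.3% control) was 10.4% and 8.44% with the class read from thinned nuclei and 8.47% and 4.70% with 2 FOXP2 UMIs. The median log2 fold change of layer 2 to 4 markers (-0.41) was 0.37 with 2 UMIs of the class gene and -0.019 at 3000 UMIs per nucleus. That of microglia markers (0.08) was 0.67 in thinned nuclei and 1.13 with the thinned class. For the interferon list (3.88) it was 4.78 with the thinned class. For MHC class I (2.93) it was 4.01 thinned, 3.85 with 2 UMIs of the class gene, 3.53 with the thinned class, 3.78 at 3000 UMIs and 3.36 to 3.79 with 1 animal left out. For sodium and calcium channels (0.33) it was 0.23 by library size alone, 0.29 thinned, 0.24 with 2 UMIs of the class gene, 0.29 at 3000 UMIs and 0.31 to 0.38 with 1 animal left out. For postsynaptic genes (0.045) it was -0.054 by library size alone, and for chaperones (0.21) it was 0.42 thinned, 0.40 with 2 UMIs of the class gene and 0.46 with the thinned class. The cause of these moves was not tested. Of 196 values for 18 other lists, 49 moved by more than the spread, by at most 1.31. Named genes lost their call most often without injured replicate 1 (16 genes) and with the thinned class or 2 UMIs of the class gene (15 each). No paired analysis was possible because the control animals were pooled in 1 library and share no replicate numbers with the injured ones. Library was a block in the interaction alone, and with no replicate block 0 genes were called there. Leaving out an animal leaves the lone control library with a spread assumed from 2 injured ones. Genes with few UMIs in 420 control deep nuclei are limited by that depth.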
